A study of Mus musculus with 9 samples.

Results

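The genes described here are 7 transcription factor genes that carry timing signals out of the circadian clock or repress its loop. They were taken by name from the deposited table: Dbp, Tef and Hlf, Nfil3, Nr1d1 and Nr1d2, and Bhlhb2, the older symbol of Bhlhe40. Each name matched 1 of the 27497 rows, and all 7 passed the filter on low values, a mean of at least 1 RPKM, that left 12780 genes for testing. RPKM divide the reads of a gene by its length and by the size of the library, so levels can be set side by side between genes as well as between mice.

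RNA came from dissected olfactory bulbs of 9 mice of the C57/BL6 strain, all adult (6 to 8 weeks or older), with no genetic modification named in the labels. The clean air group (3 mice) breathed carbon-filtered air. The 30 min group (3 mice) was killed at the end of 30 min of a mixture of odorants, and the 120 min group (3 mice) after the same 30 min of odorants and 90 min of clean air. The series asks which transcripts answer neuronal activity in the living animal. No source used here gives the hour of the day at which a mouse was killed.

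The circadian clock is a transcriptional loop found in most cells. The activators CLOCK (or its relative NPAS2) and BMAL1, encoded by Arntl, bind E-box elements and switch on the Per and Cry genes, whose proteins feed back and silence them. A further arm runs through the nuclear receptors REV-ERB alpha (Nr1d1) and REV-ERB beta (Nr1d2), which repress Arntl and other genes at elements that they share with the ROR activators. Output is passed on at D-box elements, where the PAR bZIP factors DBP, TEF and HLF activate and NFIL3, also called E4BP4, represses. BHLHE40, also called DEC1, represses at E-boxes and is also induced by many stimuli outside the clock. In brain, the PAR bZIP factors are known for keeping pyridoxal phosphate and thereby neurotransmitter metabolism in order, and mice that lack all of them have seizures.

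RefSeq promoter windows (build GRCm38.p6, 250 bases before to 50 after the annotated start) were given for 6 of the 7 genes, Tef with a window at each of its starts. Bhlhe40 had none. The windows are shown because these genes are controlled through the same short elements that their products bind. Capitals mark matches to the E-box CACGTG, the D-box TTATGTAA or TTACGTAA, the cAMP response element TGACGTCA, or the hexamer AGGTCA read by REV-ERB and ROR receptors, each searched on both strands. The windows of Dbp (chr7:45704997-45705296, plus strand) and Nfil3 (chr13:52980990-52981289, minus strand) are whole and the others are stretches around the match, all written 5′ to 3′ along the gene. The stretches are chr15:81802516-81802581 and chr15:81811246-81811311 (plus strand) for the first and the second start of Tef, chr11:90390889-90390956 (minus strand) for Hlf and chr14:18239148-18239213 (minus strand) for Nr1d2.
Dbp: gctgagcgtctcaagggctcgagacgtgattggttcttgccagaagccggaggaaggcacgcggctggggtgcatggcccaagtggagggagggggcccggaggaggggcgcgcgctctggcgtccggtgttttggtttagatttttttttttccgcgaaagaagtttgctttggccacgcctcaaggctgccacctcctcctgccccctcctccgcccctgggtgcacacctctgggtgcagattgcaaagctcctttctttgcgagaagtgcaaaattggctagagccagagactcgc
Nfil3: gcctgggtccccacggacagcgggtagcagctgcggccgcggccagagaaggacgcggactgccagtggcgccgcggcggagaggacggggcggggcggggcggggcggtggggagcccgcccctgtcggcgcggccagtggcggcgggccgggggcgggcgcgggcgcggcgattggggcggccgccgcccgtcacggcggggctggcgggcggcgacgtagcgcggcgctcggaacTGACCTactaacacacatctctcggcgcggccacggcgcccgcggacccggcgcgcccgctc
Tef, first start: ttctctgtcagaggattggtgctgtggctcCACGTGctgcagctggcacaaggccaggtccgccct
Tef, second start: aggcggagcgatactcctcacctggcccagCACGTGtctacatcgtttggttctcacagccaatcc
Hlf: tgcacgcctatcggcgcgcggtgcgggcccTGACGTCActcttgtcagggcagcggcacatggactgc
Nr1d2: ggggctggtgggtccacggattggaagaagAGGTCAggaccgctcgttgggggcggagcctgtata

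The Nfil3 window held the hexamer on the opposite strand, where its first printed base lies 12 bases before the start, and Nfil3 is a known target of REV-ERB alpha in mouse liver. The Nr1d2 window held the hexamer 77 bases before the start. Both starts of Tef carried an E-box, at 127 and 138 bases before them, and Hlf carried the cAMP response element 9 bases before its start. The windows of Dbp and Nr1d1 held none of the motifs, and no window held a D-box. Among all 32851 windows given, 7.15% held the E-box, 1.06% the D-box, 1.79% the cAMP response element and 16.3% the hexamer. A match is a description of the letters and not of a bound site, and elements outside the window, such as the intronic E-boxes known for mouse Dbp, were not searched.

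**Figure D1:**
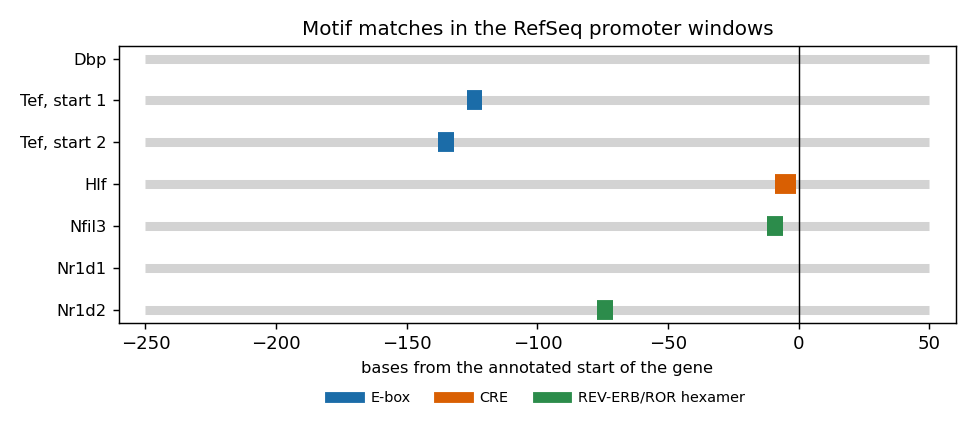
Motif matches (coloured boxes) in the promoter windows of 6 genes (grey bars, Tef with 2 starts), by distance in bases from the annotated start (black line). Nfil3 and Nr1d2 hold the REV-ERB and ROR hexamer, Tef an E-box at each start and Hlf a cAMP response element, and the bars of Dbp and Nr1d1 are empty.

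Depths recovered from the values were 10500000 to 29900000 counts in clean air, 8820000 to 28800000 at 30 min and 7150000 to 24100000 at 120 min. A transcript of 1 kb with 3 counts would then have 0.1 to 0.419 RPKM, far below the genes described here. All 9 bulb markers were present in all mice, among them Gad1 at 280 to 521 RPKM and Doc2g, a mitral and tufted cell gene, at 370.2 to 726 RPKM. The 3 cortical neuron markers summed to 1.79 to 2.71 RPKM. The 3 olfactory sensory neuron markers summed to 76.26 to 127.41 RPKM, most of it Omp at 62.28 to 112.55 RPKM. The odor exposure itself registered: Fos, an activity-induced AP-1 subunit, had 131.39 to 170.8 RPKM at 30 min against 4.04 to 12.1 RPKM in clean air (limma, adjusted p = 0.000165). In whole bulb, less RNA per cell cannot be told apart from fewer cells of a type.

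In clean air the genes formed an upper tier around 50 to 125 RPKM and a lower tier under 30. Nr1d1 was highest at 107 ± 17.7 RPKM (mean ± SD, n = 3 mice, as for all RPKM means here), with a range of 89.91 to 125.27 RPKM that lay above that of Dbp. The PAR bZIP genes followed with 85.2 ± 3.51 RPKM for Dbp, 80.0 ± 3.99 for Tef and 64.1 ± 20.95 for Hlf, and these neighbours overlapped between mice. Bhlhb2 had 26.9 ± 1.53 RPKM, Nfil3 10.1 ± 0.869 and Nr1d2 6.26 ± 1.21, and the ranges of these 3 genes did not overlap. The activators at D-boxes were thus each at several times the level of their repressor, and the REV-ERB alpha transcript was 13.0 to 25.8 times the REV-ERB beta transcript in each mouse.

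**Figure D2:**
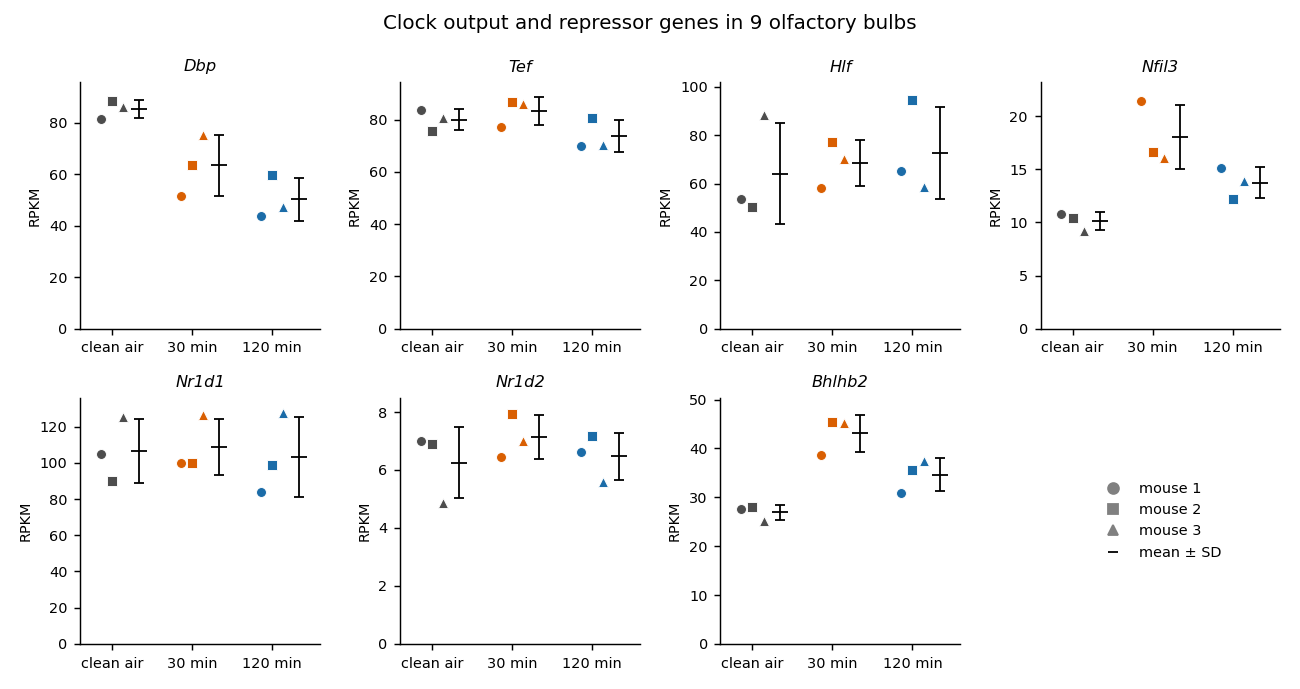
RPKM (vertical axes, from 0) of the 7 genes in each mouse (symbols) by group, with the group mean ± SD (n = 3) at the right of the points. Dbp is lower in all 6 odor-exposed mice than in every clean air mouse, Nfil3 and Bhlhb2 are higher in all 6, and the groups of the other 4 genes overlap.

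After 30 min of odor, 2 of the repressor genes stood above clean air and 1 activator gene stood below it in every mouse, although no difference passed across all genes tested. By limma 0 of the 7 genes passed at a Benjamini-Hochberg adjusted p under 0.05, where 0.141% of all tested genes did. An unadjusted p under 0.05 was found for 3 of the 7 and for 5.92% of all tested genes. The groups did not overlap for 3 of the 7 genes (Nfil3 and Bhlhb2 higher, Dbp lower), while this held for 11.4% of all tested genes. The median log2 difference of the 7 genes was 0.13, beside 0.08 for all genes tested.

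Nfil3, the repressor at D-boxes, had 10.81, 10.46 and 9.16 RPKM in clean air mice 1, 2 and 3 and 21.48, 16.6 and 16.04 RPKM in the 30 min mice. Every exposed mouse lay above every clean air mouse, and the 30 min mean of 18.0 ± 2.99 RPKM was 1.73 times clean air by the fit. The log2 difference was 0.79 ± 0.17 (SE, on log2(RPKM + 0.5) as for all differences here), with an adjusted p of 0.349, and it ranked 27th of 12780 genes by p.

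Bhlhb2, the repressor at E-boxes, had 27.58, 27.98 and 25.16 RPKM in the clean air mice and 38.6, 45.39 and 45.18 RPKM at 30 min. The groups were again separate, with a mean of 43.1 ± 3.86 RPKM at 30 min and a log2 difference of 0.67 ± 0.15 (adjusted p = 0.373, rank 28 by p).

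Dbp, the first named of the PAR bZIP activators and a strong output gene of the clock in many tissues, had 81.35, 88.23 and 86 RPKM in clean air. In the 30 min mice it had 51.41, 63.49 and 75.12 RPKM. All 3 exposed mice were below the lowest clean air mouse, but they spread more widely (SD 11.9 against 3.51 RPKM), and the log2 difference was -0.44 ± 0.18 (adjusted p = 0.818, not passed).

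The groups of the other PAR bZIP genes overlapped, and whether their differences are unlike that of Dbp was not tested. Tef, a factor first described in the pituitary thyrotroph lineage, had 83.57, 75.69 and 80.75 RPKM in the clean air mice and 77.29, 86.79 and 86.19 RPKM at 30 min. These groups overlapped, and the log2 difference of 0.06 (-0.020 after median centring) had a 95% interval from -0.25 to 0.36. Hlf had 53.76, 50.39 and 88.25 RPKM in the clean air mice and 58.19, 77.13 and 70.17 RPKM at 30 min. Its SD in clean air, 32.7% of the mean, was the widest among the 7 genes, and the interval of its difference ran from -0.41 to 0.68.

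The REV-ERB genes overlapped between the groups as well. Nr1d1 had 105.04, 89.91 and 125.27 RPKM in the clean air mice and 99.84, 99.95 and 126.32 RPKM at 30 min, a log2 difference of 0.03 (-0.049 after median centring) with an interval from -0.41 to 0.47. Nr1d2 had 7, 6.91 and 4.86 RPKM in the clean air mice and 6.46, 7.94 and 7.01 RPKM at 30 min, with 0.19 and an interval from -0.24 to 0.62. These intervals still hold differences of some size in either direction for Hlf and the REV-ERB genes, so equal levels are not shown.

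**Figure D3:**
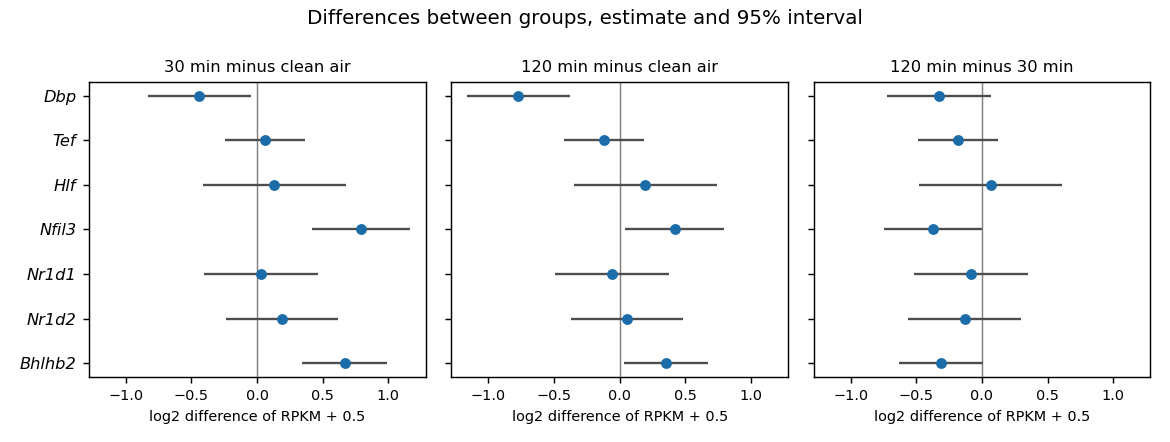
Differences between groups on the scale of log2(RPKM + 0.5) (horizontal axes) for the 7 genes, with points for the estimate and lines for its 95% interval from limma. The intervals of Nfil3 and Bhlhb2 lie above 0 and those of Dbp below 0 in both comparisons with clean air, before any adjustment over the 12780 genes.

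At 120 min, that is 90 min after the odor had ended, Dbp had its lowest mean of the 3 groups and the levels of Nfil3 and Bhlhb2 lay between those of clean air and 30 min. Again 0 of 7 genes passed by limma (0.0861% of all tested genes did), and 3 had an unadjusted p under 0.05 (9.57% of all tested genes did). The groups of the same 3 genes, Dbp, Nfil3 and Bhlhb2, did not overlap, against 13.1% of all tested genes. The comparisons at 30 and 120 min use the same clean air mice and are not independent.

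Dbp had 43.68, 59.64 and 47.18 RPKM at 120 min, all below the lowest clean air value of 81.35 RPKM. The mean of 50.2 ± 8.39 RPKM was 0.586 times clean air by the fit, and the log2 difference of -0.77 ± 0.18 had an adjusted p of 0.339 (rank 42 by p). Dbp lay below Tef in each of the 6 exposed mice, while its clean air range overlapped that of Tef.

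Nfil3 had 15.15, 12.22 and 13.89 RPKM at 120 min, each above the highest clean air mouse and below the lowest 30 min mouse. Its log2 difference from clean air was 0.42 ± 0.17 (adjusted p = 0.475). Bhlhb2, with 30.92, 35.55 and 37.37 RPKM, also lay between the other groups without overlap, and its difference from clean air was 0.35 ± 0.15 (adjusted p = 0.479).

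Tef had 69.95, 80.64 and 70.14 RPKM at 120 min, overlapping clean air, with a log2 difference of -0.12 and an interval from -0.43 to 0.18. Hlf had 65.34, 94.48 and 58.58 RPKM, with 0.20 and an interval from -0.35 to 0.74. Nr1d1 had 83.98, 98.56 and 127.27 RPKM and a difference of -0.06 (interval -0.49 to 0.38). Nr1d2 had 6.63, 7.19 and 5.6 RPKM and 0.06 (interval -0.37 to 0.48). None of these 4 genes separated the groups.

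Between 30 and 120 min 0 of the 7 genes passed by limma (0.0782% of all tested genes did), and 0 had an unadjusted p under 0.05 (3.36% of all tested genes did). Nfil3 (-0.37 ± 0.17) and Bhlhb2 (-0.31 ± 0.15) had groups that did not overlap, 2 of 7 (1 of 7 after median centring) beside 10.6% of all tested genes. Dbp overlapped between these times, at -0.33 ± 0.18, and the adjusted p of each of the 7 genes was 0.999.

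With both exposed groups set together against clean air, a comparison added after the data were seen, Dbp, Nfil3 and Bhlhb2 were the genes whose 6 exposed mice lay apart from the 3 clean air mice. That is 3 of 7, and it held for 4.68% of all tested genes. None passed by limma (0.125% of all tested genes did): the log2 differences were -0.61 ± 0.15 for Dbp (adjusted p = 0.307), 0.61 ± 0.15 for Nfil3 (0.302) and 0.51 ± 0.13 for Bhlhb2 (0.307), and these 3 genes had an unadjusted p under 0.05, as did 9.62% of all tested genes.

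The D-box activators and their repressor were compared within each mouse as ratios of RPKM. Dbp was at 7.53, 8.44 and 9.39 times the level of Nfil3 in the clean air mice, at 2.39, 3.83 and 4.68 times at 30 min and at 2.88, 4.88 and 3.397 times at 120 min. The ratios of the exposed groups overlapped each other. Each exposed mouse had a ratio below the lowest clean air ratio, which follows from the separate values of Dbp and Nfil3 given above. Both genes contribute to this: the repressor was highest at 30 min and the activator lowest at 120 min, so the mean ratio was 3.63 ± 1.16 at 30 min and 3.72 ± 1.04 at 120 min, beside 8.45 ± 0.932 in clean air. These ratios were chosen with the values known and are given with no test.

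The ratio of Tef to Nfil3 was 7.24 to 8.82 in clean air, 3.60 to 5.37 at 30 min and 4.62 to 6.60 at 120 min. The clean air mice thus lay above all exposed mice, although Tef itself overlapped in every comparison while Nfil3 overlapped in none. For Hlf, with its wide spread, the ratio to Nfil3 overlapped between clean air (4.82 to 9.63) and 120 min (4.22 to 7.73) but not between clean air and 30 min (2.71 to 4.65). The 3 activators summed to 214 to 255 RPKM in clean air, 187 to 232 at 30 min and 176 to 235 at 120 min, ranges that overlap. Relative to Nfil3 this sum was 20.2 to 27.8 in clean air, 8.70 to 14.4 at 30 min and 11.8 to 19.2 at 120 min. The share of Dbp in the sum was 37.4 ± 3.72% in clean air, 29.3 ± 2.74% at 30 min and 25.5 ± 1.21% at 120 min, and these 3 groups did not overlap.

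**Figure D4:**
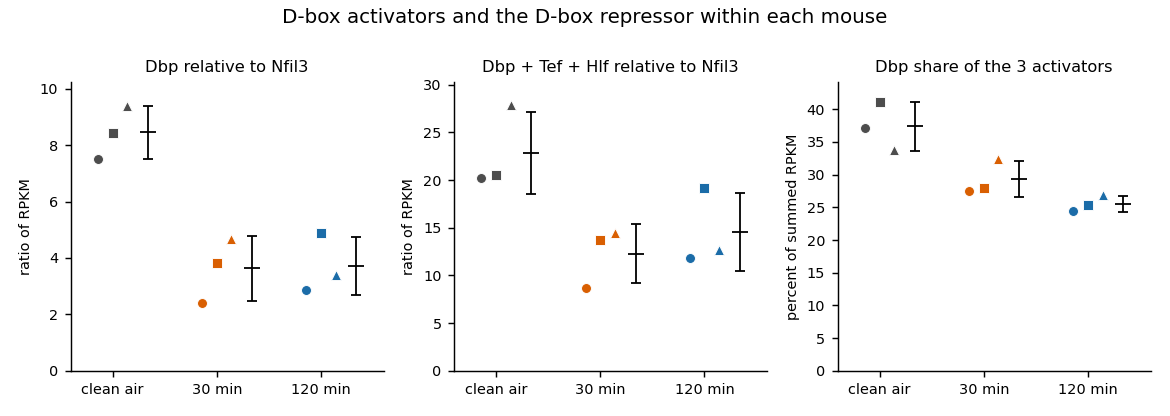
Ratio of Dbp to Nfil3, ratio of the summed activators to Nfil3, and share of Dbp in the summed activators in percent (vertical axes, from 0), per mouse and group with mean ± SD (n = 3). Clean air mice have Dbp to Nfil3 ratios of 7.53 to 9.39 and exposed mice ratios of 2.39 to 4.88.

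Among the repressors themselves, Nfil3 and Bhlhb2 shared an order of groups (30 min, then 120 min, then clean air, with no overlap between groups in the deposited values), and the groups of the REV-ERB genes overlapped in every comparison. Nr1d1 instead differed by mouse number: mouse 3 of each group had the highest value, at 125.27, 126.32 and 127.27 RPKM, while mice 1 and 2 had 83.98 to 105.04 RPKM. Mice with the same number are separate animals, and the labels do not say whether they share anything else. The numbers are those of the titles. In the description codes, mice 2 and 3 carry other numbers in clean air than in the exposed groups. The ratio of Nr1d1 to Nr1d2 was likewise highest in mouse 3 of each group, at 25.8, 18.0 and 22.7, against 12.6 to 15.5 in the other 6 mice. Hlf was highest in clean air mouse 3 and in mouse 2 of both exposed groups, and these are the deepest libraries of their groups, at 29900000, 28800000 and 24100000 counts. The part of depth in the Hlf values was not tested.

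Some exons overlap those of other genes, and no source used here says whether counting used strand, so reads of shared stretches cannot be told apart. By the GENCODE M21 annotation 18.0% of the exonic bases of Dbp overlap Sphk2, a sphingosine kinase gene on the opposite strand, which had 12.01 to 20.15 RPKM in clean air, 12.5 to 18.46 at 30 min and 20.1 to 22.75 at 120 min. Of Nr1d1, 8.55% overlaps Thra, the thyroid hormone receptor alpha gene, at 236 to 375 RPKM. Nfil3, Hlf and Nr1d2 overlap no annotated exon of another gene, and the overlaps of Tef (2.45%) and Bhlhb2 (2.51%) are with antisense RNAs that were not analysed here.

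The surrounding clock loop was read from a list of 18 core clock genes, of which 16 were in the table and 13 were tested. None passed in any of the 3 comparisons by limma, and the counts with an unadjusted p under 0.05 were 2 at 30 min, 3 at 120 min and 3 between those times, beside 5.92%, 9.57% and 3.36% of all tested genes. Of the 13, 2 lay higher and 1 lower without overlap at 30 min, against 11.4% of all tested genes. At 120 min 3 lay higher and 1 lower (13.1%), and between those times 2 and 1 (10.6%). The median log2 difference of the list was 0.09 at 30 min and 0.24 at 120 min, beside 0.08 and 0.03 for all genes tested. The others were not analysed here or were under the filter on low values.

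Clock, which encodes a subunit of the E-box activator, had 7.29, 7.16 and 6.33 RPKM in clean air, 8.44, 11.82 and 10.1 at 30 min and 9.92, 13.98 and 13.07 at 120 min. Its exposed mice all lay above the clean air mice, with log2 differences of 0.51 ± 0.19 (adjusted p = 0.818) and 0.78 ± 0.19 (0.339). Arntl, the gene of its partner and a REV-ERB target, had 9.31 to 13.7 RPKM in clean air, 12 to 12.82 at 30 min and 10.33 to 16.57 at 120 min, and these groups overlapped as those of the REV-ERB genes did.

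Per1, a clock repressor gene that is also induced by signalling, had 31.84, 23.43 and 43.34 RPKM in the clean air mice and 47.74, 66.55 and 52.27 RPKM at 30 min (0.78 ± 0.23, adjusted p = 0.731). Its groups did not overlap at 30 min, and at 120 min Per1 overlapped clean air with 38.62 to 49.88 RPKM. Per2 was separate at 120 min only, with 7.46 to 9.17 RPKM against 5.15 to 6.11 in clean air and 4.65 to 5.65 at 30 min (0.60 ± 0.17 against clean air, adjusted p = 0.342). Npas2, named after its values were seen, was likewise separate at 120 min, with 11.17 to 12.56 RPKM. It had 6.99 to 9.24 in clean air and 8.05 to 9.4 at 30 min (0.51 ± 0.16 against clean air, limma, adjusted p = 0.364). Per3 lay below clean air (10.72 to 11.72 RPKM) in all exposed mice, at 8.42 to 10.66 and 6.5 to 10.23 RPKM, the direction of Dbp, with -0.23 ± 0.19 and -0.39 ± 0.19 (adjusted p = 0.845 and 0.554). Without 30 min mouse 1 the first of these Per3 differences was -0.15, and without 120 min mouse 3 the second was -0.21. Cry1 overlapped in all groups, at 10.82 to 14.27 RPKM.

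**Figure D5:**
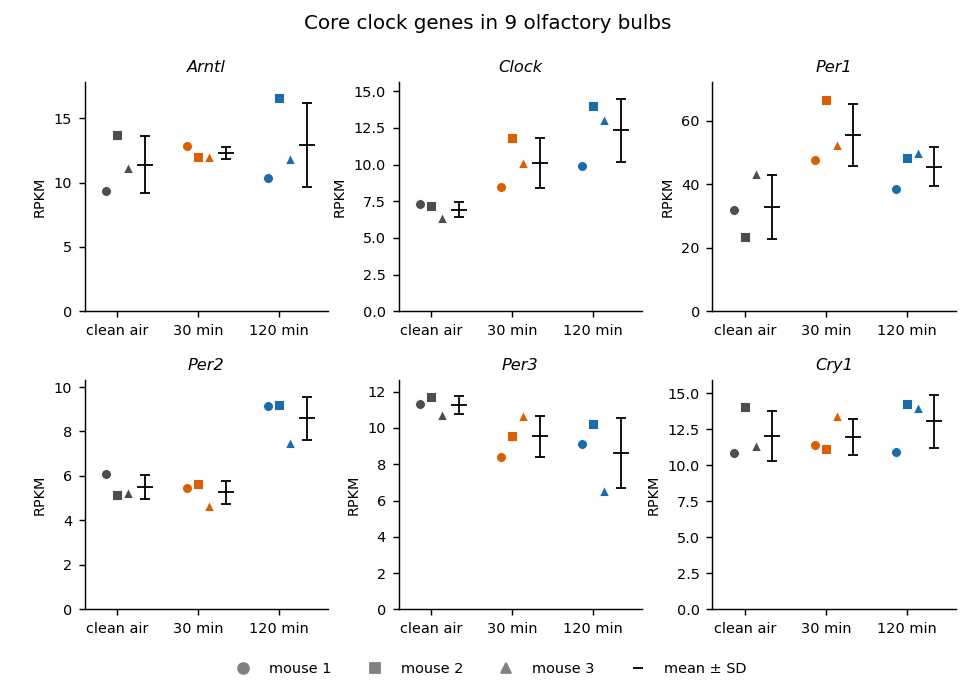
RPKM (vertical axes, from 0) of 6 core clock genes in each mouse (symbols) by group, with mean ± SD (n = 3) at the right of the points. Clock is higher and Per3 lower in all exposed mice than in clean air, Per1 separates from clean air at 30 min and Per2 at 120 min, and Arntl and Cry1 overlap.

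Of 13 clock-controlled genes, all tested, 1 passed: Ccrn4l, the gene of the deadenylase-like protein nocturnin, rose at 120 min to 37.91 to 46.58 RPKM from 16.2 to 19.31 RPKM in clean air (1.20 ± 0.16, adjusted p = 0.0262, limma). It lost the call without any 1 of the 3 clean air or the 3 mice at 120 min (log2 differences of 1.11 to 1.26, adjusted p over its alternatives 0.0183 to 0.18). None of the 13 passed at 30 min or between 30 and 120 min. An unadjusted p under 0.05 was found for 0 of the 13 at 30 min, 3 at 120 min and 1 between those times, beside 5.92%, 9.57% and 3.36% of all tested genes. The list medians were 0.12 at both times. Pdxk, the pyridoxal kinase gene and the brain target of the PAR bZIP factors, had 44.15 to 85.73 RPKM in clean air, 64.36 to 74.82 at 30 min and 70.21 to 96.62 at 120 min, with overlapping groups and differences of 0.04 ± 0.24 and 0.25 ± 0.24. It is named after its values were seen.

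Some of the listed markers had groups that did not overlap, beside 11.4% of all tested genes at 30 min and 13.1% at 120 min. At 30 min these were Th, Neurod6, Aqp4, Cldn5, Hbb-b1, Sgk1 and Per1, and at 120 min only Tbx21 and Cldn5. No tested marker passed at 30 or 120 min. The 2 endothelial markers summed to 83.23 to 90.99 RPKM in clean air, 48.88 to 78.18 at 30 min and 61.88 to 74.54 at 120 min, with both exposed groups below clean air as for Dbp. Cldn5 makes up most of this sum, at 76.06 to 86.88, 41.38 to 70.32 and 53.22 to 67.03 RPKM, while the log2 differences of Pecam1 were above 0 (0.38 and 0.36) with overlapping groups, so these markers did not share a direction. The 3 red blood cell markers summed to 38 to 144.82 RPKM in clean air, 152.66 to 196.81 at 30 min and 46.31 to 188.52 at 120 min. This sum was separate at 30 min as Nfil3 and Bhlhb2 were, with Hba-a1 listed at 0 in all mice. Hbb-b1 makes up most of it, at 36.96 to 141.7, 147.92 to 192.91 and 45.4 to 186.89 RPKM. Alas2 overlapped clean air at both times, with log2 differences of 0.99 at 30 min and -0.35 at 120 min. The 3 astrocyte markers summed to 816 to 1232, 1009 to 1186 and 943 to 1385 RPKM and overlapped, although 1 of them, Aqp4, separated at 30 min. The 5 stress hormone responsive genes summed to 103.58 to 169.51, 150.03 to 173.01 and 145.25 to 150.82 RPKM and overlapped, with Sgk1 and Per1 separate at 30 min. Of the neuronal markers, Th of periglomerular cells was separate at 30 min (188.34 to 219.82 RPKM against 157.19 to 182.8 in clean air), as was the cortical marker Neurod6 (0.73 to 1.09 against 0.36 to 0.7). Neurod6 was under the filter on low values and was not tested. Its values lie not far above the 0.1 to 0.419 RPKM that 3 counts would give a transcript of 1 kb. Tbx21 of mitral and tufted cells was separate at 120 min (23.11 to 26.39 against 15.72 to 20.13). The part of these in the values of Dbp, Nfil3 and Bhlhb2 was not tested. Time of day, which sets the level of Dbp and the REV-ERB genes in many tissues, cannot be told apart from the groups here if the groups were killed at different hours.

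To find the profiles most like each of the 7 over the 9 libraries, 8610 named genes averaging 5 RPKM or more were ranked, by Pearson r of log2(RPKM + 0.5). The 9 points share libraries and fall in groups, and with so many candidates high r values are found for each gene, so no p is given. For Dbp they were AK016591 (r = 0.97), Gltscr2 (0.94) and Apoe (0.93), and Apoe, an apolipoprotein gene made mainly by astrocytes in brain, had 3784 to 4552 RPKM in the clean air mice and 2645 to 3711 in the exposed mice. For Nfil3 they were Zfp629 (0.96), Rabep1 (0.92) and Dhx8 (0.92), and for Bhlhb2 Rnf12, Itga6 (0.92 each) and Gtf3c4 (0.91). Zfp629 had 8.15 to 9.01 RPKM in the clean air mice and 9.4 to 11.19 in the exposed mice, and Gtf3c4 had 5.5 to 6.51 and 7.13 to 8.27 RPKM. Apoe, Zfp629 and Gtf3c4 were chosen for their likeness to genes whose groups were separate, so their own separation follows in part from that choice. Gltscr2 overlapped, at 75.18 to 94.82 RPKM in clean air and 52.99 to 80.16 in the exposed mice. So did Rabep1, at 10.68 to 11.95 and 11.71 to 16.38 RPKM. For the remaining genes they were Pdk1, Lysmd4 and Lin37 for Tef (0.89 to 0.91), Kiaa0819, AI593442 and Jmjd1b for Hlf (0.92 to 0.95), Dirc2, Unc84b and Ndufa8 for Nr1d1 (0.92 to 0.95), and Hiat1, Lrrc49 and Scyl2 for Nr1d2 (0.97 to 0.98).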

How the data were processed

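Poly(A)-selected RNA of 9 olfactory bulb samples was sequenced from paired ends, per the labels' protocols. Reads were aligned with Bowtie to build mm9, per the submitters' processing notes. No source used here gives the version of Bowtie, the counting rule, the annotation or whether strand was used. The deposited values are RPKM made by the authors, 1 column per mouse, and were used without further scaling. Each column name was matched to the code in the description of 1 sample. Titles give the mouse numbers, which differ from the codes for some mice.

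The 12780 genes averaging 1 RPKM or more were tested on log2(RPKM + 0.5) in 1 limma fit (limma 3.58.1, R 4.3.3, mean-variance trend) to all 9 libraries, which leaves 6 residual degrees of freedom. Tests were two-sided, with Benjamini-Hochberg adjustment over all 12780 genes and a threshold of 0.05. The fit was also run on simulated data. Their errors were drawn independently for each library, so the simulation holds no likeness between same-numbered mice and does not bear on it. The fold change on this scale understates the change of low genes. Mice are separate animals, 3 a group. Depth was recovered from the spacing of RPKM values of short RNAs, with an assumed length 34 nt under the annotated one (90.6% of multiples whole within 0.05, against 30.5% with full lengths). It covers counting error only, and whether a count is a read or a pair is not given. Zfp629 is listed in the table with a second symbol.

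The members and lists were chosen with earlier results of these data known. Named were all members, list genes that passed, the core clock genes Arntl, Clock, Per1, Per2, Per3 and Cry1, and the 3 genes most like each member. Alternatives were pseudocounts, filters, scalings, a block by mouse number, a fit of 2 groups, no trend, and leaving out each mouse.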

Additional observations from a re-analysis of the deposited data

Results flagged for a closer look

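Ciart, the gene of the clock repressor CHRONO and a member of the core clock list, was noted because every 30 min mouse lay above the clean air mean and every 120 min mouse below it. It had 7.66, 3.81 and 3.59 RPKM in clean air mice 1, 2 and 3, 5.42, 7.85 and 7.5 RPKM at 30 min, and 3.57, 3.33 and 4.45 RPKM at 120 min. The exposed groups cannot overlap in a gene noted by this rule, so their separation is no further result. Their difference of -0.79 ± 0.28 on the log2 scale did not pass (limma, adjusted p = 0.999). Clean air mouse 1 reached the level of the 30 min mice, and without it the difference of 120 min from clean air was 0.020 in place of -0.30. Ciart was named after its values were seen.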

How the results depend on the processing

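None of the 7 genes passed in any comparison under the 18 alternatives (17 for both exposed groups together), so that count stayed at 0. The differences of Dbp, Nfil3 and Bhlhb2 kept their directions throughout: at 120 min Dbp ran from -0.90 to -0.68 (adjusted p 0.176 to 0.708), at 30 min Nfil3 from 0.66 to 0.87 (0.132 to 0.746) and Bhlhb2 from 0.59 to 0.74 (0.208 to 0.999). Of all genes, 11 passed at 120 min, 7 with a mean of at least 5 RPKM, 2 in a fit of the 2 groups alone, and 0 to 11 with 1 mouse left out. For the exposed groups together 9 to 18 passed with 1 mouse left out, against 16. Of the core clock and clock-controlled genes the 1 call at 120 min, Ccrn4l, became 0 in the fit of 2 groups (its adjusted p over the alternatives was 0.0183 to 0.18) and 0 to 1 with 1 mouse left out. Genes of the 7 without overlap numbered 3 to 5 at 30 min and 2 to 4 between 30 and 120 min with 1 mouse left out. Leaving out a mouse cannot make separate groups overlap, so these counts could only stay or rise. After median centring the count between those times was 1. Median centring also turned the 30 min differences of Nr1d1 (-0.049) and Tef (-0.020). The cause of these changes was not tested.

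With 1 mouse left out, directions turned for small differences. Against clean air at 30 min the ranges were -0.018 to 0.38 for Hlf, -0.086 to 0.15 for Nr1d1, -0.011 to 0.26 for Arntl, -0.085 to 0.105 for Cry1 and -0.11 to 0.017 for Per2. At 120 min they were -0.0049 to 0.45 for Hlf, -0.22 to 0.082 for Nr1d1, -0.10 to 0.15 for Nr1d2, -0.024 to 0.30 for Arntl and -0.48 to 0.020 for Ciart. Between 30 and 120 min they were -0.14 to 0.21 for Hlf, -0.25 to 0.052 for Nr1d1, -0.14 to 0.18 for Arntl, -0.285 to 0.023 for Per3 and -0.23 to 0.25 for the log2 ratio of Dbp to Nfil3.

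Mice that share a number are separate animals, and the numbers were not taken as pairs in the main fit. The numbers are those of the titles, and the description codes number some of these mice differently between the groups. The deviations of same-numbered mice correlated at 0.081 to 0.444, and 7 of 9 pairs were over 0.1. Yet 9 of 9 libraries correlated best with their own number, which the main fit does not take into account. With the number as a replicate block 22 genes passed at 30 min in place of 18, 11 at 120 min and 10 between those times, and again 0 of the 7.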
